A study of Mus musculus with 7 samples.

Results

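The inflammasome genes examined here were 9 of the 24421 gene symbols counted in mouse LSK cells. These are bone marrow cells that lack lineage markers and carry Sca1 and Kit, a gate for stem cells and early progenitors. They were taken by symbol, without regard to expression, and comprised the sensors Nlrp3, Aim2 and Nlrc4, the adaptor Pycard, the caspases Casp1 and Casp4, the pore-forming effector Gsdmd and the cytokines Il1b and Il18. All 9 had a row in the counts and all 9 passed the filter on low counts. The comparison was between Ddx41+/- and Ddx41+/+ cells, and asked whether transcripts of the inflammasome pathway changed with the loss of 1 allele of the RNA helicase gene Ddx41.

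The Ddx41+/+ group (4 samples, replicates 1 to 4) came from lethally irradiated BoyJ recipients of RosaCreERT2 marrow with wild-type Ddx41 alleles, and the Ddx41+/- group (3 samples, replicates 6 to 8) from recipients of RosaCreERT2 marrow that was Ddx41+/flox. Both groups therefore carried the CreERT2 recombinase in the donor marrow, and both received tamoxifen, at 1 mg per day in 2 rounds of 5 days. The sort took place 8 weeks after transplantation, and each sample is the RNA of a separate mouse. The ages of the mice are not given in the sources used here. No marker of donor origin is named for the sort, so any LSK cells of the host that survived irradiation would have been counted with the donor cells. A Ddx41+/- library numbered 5 was removed by the submitters and was not analysed here.

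Inflammasomes are cytosolic complexes in which a sensor of infection or damage recruits an adaptor and activates caspase-1. The caspase then cleaves gasdermin D, which forms pores in the plasma membrane, and matures the cytokines encoded by Il1b and Il18. In myeloid cells a priming step raises transcription of Nlrp3 and Il1b through NF-kB, and a separate activation step acts on the proteins. RNA counts can show the former but not cleavage or assembly.

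Library totals ranged from 32234499 to 43751290 counts, and the 9 genes together held between 0.0276% and 0.0306% of them. Ddx41 itself was at 68.8% of the Ddx41+/+ level in Ddx41+/- samples, with no overlap between the genotypes. Levels are given in CPM, the counts relative to the TMM-scaled library size. All 12 LSK marker genes were detected at 1 CPM or more on average. Their summed level, of which 38.2% was Cd34, was lower in Ddx41+/- samples, at 1750 to 1896 CPM compared with 1925 to 2113 CPM. The genotypes did not overlap in 5 of the 12, compared with 10.1% of all genes tested. Kit overlapped, at 427.0 to 505.0 CPM in Ddx41+/+ and 455.4 to 490.0 CPM in Ddx41+/- samples. Ly6a, which encodes the Sca1 antigen, also overlapped, at 17.65 to 23.6 CPM and 13.3 to 30.5 CPM. Transcripts of mature myeloid cells, which are the cells best known for inflammasome activity, were present in every sample although the sort was for lineage-negative cells. The 11 neutrophil markers in the counts summed to 740.8 to 1255 CPM in Ddx41+/+ and 1335 to 2283 CPM in Ddx41+/- samples. Of that sum, 27.3% was S100a9. By edgeR, 9 of the 10 tested were higher at an unadjusted p under 0.05, compared with 761 of all 13340 genes tested. The exception was Cxcr2, with a log2 fold change of -0.24. It overlapped between the genotypes, at 7.51 to 10.5 CPM in Ddx41+/+ and 6.14 to 10.05 CPM in Ddx41+/- samples. At an adjusted p under 0.05, 1 of the 10 was higher. For 15 monocyte and macrophage markers the sums were 1756 to 2096 CPM and 2025 to 2758 CPM, of which 41.3% was F13a1. At that unadjusted p, 5 of the 15 were higher. In both lists none of the markers was at 0 in all samples, and the resident macrophage genes C1qa, C1qb and C1qc reached 4.75, 5.96 and 5.62 CPM at most. Sums over all samples were 66.96 to 94.8 CPM for 8 dendritic cell markers, of which 81.0% was H2-Ab1. For 8 B cell markers they were 42.7 to 78.8 CPM, of which 46.9% was Cd79b. They were 222.8 to 283.0 CPM for 8 T and NK cell markers, of which 99.1% was Nkg7. The 8 erythroid markers summed to 41.5 to 74.9 CPM, of which 47.1% was Slc4a1. The globin genes Hba-a1, Hba-a2, Hbb-bs and Hbb-bt were at 0. At the same unadjusted p, 8 of 12 LSK markers and 2 of 7 dendritic cell markers were lower. At this p 3 of 8 B cell markers were higher. Over all 13340 genes tested, 657 were lower and 761 higher. Of the LSK markers, 1 had an adjusted p under 0.05. In bulk RNA, fewer cells of a type and less RNA per cell cannot be told apart, and the part of these myeloid transcripts in the levels given below was not tested.

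None of the 9 inflammasome genes passed the test between the genotypes. By the quasi-likelihood test of edgeR, 0 of 9 had a Benjamini-Hochberg (BH) adjusted p under 0.05, where 0.217% of the 13340 genes tested did. Likewise, 0 of 9 had an unadjusted p under 0.05, compared with 10.6% of all genes, and 0 of 9 had CPM values that did not overlap between the genotypes, compared with 10.1% of all genes. DESeq2 and limma-voom with sample quality weights also called 0 of 9. The log2 fold changes were positive for 4 genes and negative for 5, from -0.067 for Pycard to 0.24 for Nlrp3, with a median of -0.014 that lay close to the median over all genes of -0.0048. A p above the threshold does not show equal levels, and the 95% confidence intervals, which bound the change in each gene, ranged widely in width.

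**Figure D1:**
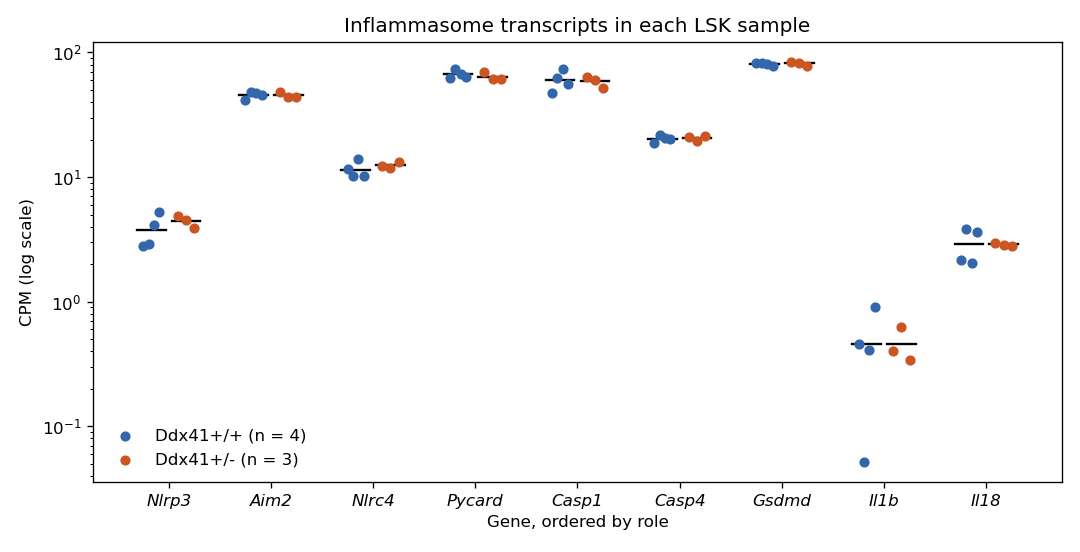
Level of each inflammasome gene in CPM (log scale) with 1 point per sample, Ddx41+/+ in blue (n = 4) and Ddx41+/- in orange (n = 3), and the mean of each group as a black line. The points of the genotypes overlap for all 9 genes, Gsdmd ranges from 77.6 to 83.2 CPM, and Il1b spreads from 0.0518 to 0.912 CPM.

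The sensors were examined first. Nlrp3 (chromosome 11, 59541568 to 59566956 in GRCm38, plus strand) encodes the sensor that responds to ion fluxes and membrane damage, and its priming by NF-kB is the best described control point of the pathway. It was expressed at a low level, at 2.80, 2.90, 4.14 and 5.25 CPM in Ddx41+/+ replicates 1 to 4 and at 4.87, 4.57 and 3.92 CPM in Ddx41+/- replicates 6 to 8. All Ddx41+/- values lay inside the Ddx41+/+ range, above replicates 1 and 2 and below replicate 4. The means were 3.77 ± 1.16 CPM (SD, n = 4) and 4.45 ± 0.486 CPM (SD, n = 3), a log2 fold change of 0.24 (SE 0.25, edgeR adjusted p = 0.786). The 95% confidence interval extended from -0.29 to 0.77, so a level between 82.1% and 170.3% of that in Ddx41+/+ cells lay within the interval. Nlrp3 rested on 112 to 192 counts per sample. It had the largest fold change of the 9 genes, and its estimate depended on single samples, as it was 0.12 without Ddx41+/+ replicate 1 and 0.44 without Ddx41+/+ replicate 4 (edgeR adjusted p = 0.588). Over all 14 alternatives its adjusted p was between 0.588 and 0.939. The neutrophil marker sum was lowest in Ddx41+/+ replicates 1 and 2, at 740.8 and 917.7 CPM, the samples that were also lowest in Nlrp3. The erythroid sum was lowest in the same samples, at 41.5 and 50.6 CPM. The monocyte and macrophage sum was lowest in Ddx41+/+ replicates 1 and 4, at 1756 and 1831 CPM, and replicate 4 was highest in Nlrp3. Across the 7 samples the log2 of the neutrophil sum and log2 CPM of Nlrp3 had a Pearson's r of 0.73. The marker lists gave values from -0.63 for LSK to 0.91 for erythroid markers. These are descriptions over samples that share scaling, and the part of other cells in the Nlrp3 values was not tested.

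The promoter of Nlrp3 is shown because priming acts on its transcription. RefSeq lists 2 start sites for the gene, and the 250 bases before each are given here 5′ to 3′ on the plus strand of GRCm38.p6, with matches to the searched motifs in capitals. The upstream start has a match to the kappaB letters GGANTTTCC, on either strand, that begins 122 bases before it. This motif was found in 1.07% of 32851 promoter windows of the same length. The downstream start has 3 matches to GAGGAA, the core bound by the myeloid factor PU.1, beginning 220, 129 and 36 bases before it, a motif present in 23.3% of all windows. The searched motifs did not overlap within these windows, and a match is a description of the letters, not evidence of binding.
Nlrp3, upstream start, chr11:59541319-59541568: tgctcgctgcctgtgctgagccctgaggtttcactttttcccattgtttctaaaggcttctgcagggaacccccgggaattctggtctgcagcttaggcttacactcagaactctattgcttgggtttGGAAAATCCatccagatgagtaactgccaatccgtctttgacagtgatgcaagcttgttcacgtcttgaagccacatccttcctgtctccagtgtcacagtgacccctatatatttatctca
Nlrp3, downstream start, chr11:59542436-59542685: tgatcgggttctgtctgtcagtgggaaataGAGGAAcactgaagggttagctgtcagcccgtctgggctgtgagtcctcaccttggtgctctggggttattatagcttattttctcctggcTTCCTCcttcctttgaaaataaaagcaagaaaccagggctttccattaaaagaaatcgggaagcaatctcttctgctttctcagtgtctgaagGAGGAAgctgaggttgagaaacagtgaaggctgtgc

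Promoter windows were found for 8 of the 9 genes, in 10 windows, and Gsdmd had none. The kappaB letters occurred in 1 of the 10, which is the upstream Nlrp3 window above. This depends on the letters chosen. The more general kappaB consensus, searched on both strands after the data were seen, was found in 3 of the 10 windows, both overlapping windows of Casp4 and the upstream one of Nlrp3, and in 7.25% of all windows. The letters of PU.1 occurred in 4 windows, which belong to Nlrp3, Aim2, Casp1 and Pycard. TTGCNNAA, the core bound by C/EBP factors, was found before Nlrc4 and Pycard, where 9.56% of all windows held it. All 250 bases of the Pycard window are annotated as exon. The Aim2 window (173420354 to 173420603) and the downstream Nlrp3 window lie inside the annotated spans of their genes. GAAANNGAA, a part of the interferon-response element, and TGANTCA, the AP-1 core, were found in none of the 10 windows (7.13% and 6.75% of all windows). The Il1b window held none of the 5 motifs.

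Aim2 (chromosome 1, 173350879 to 173466040), a sensor of cytosolic double-stranded DNA, had between 1484 and 1935 counts per sample. Its values were 41.8, 48.3, 47.7 and 45.3 CPM in Ddx41+/+ and 47.8, 44.0 and 43.6 CPM in Ddx41+/- samples. The groups overlapped fully, with means of 45.8 ± 2.98 CPM (SD, n = 4) and 45.1 ± 2.31 CPM (SD, n = 3). The log2 fold change was -0.019 (SE 0.081, edgeR adjusted p = 0.959), with a confidence interval from 87.6% to 111.2% of the Ddx41+/+ level.

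Nlrc4 (chromosome 17, 74425438 to 74459142), which is engaged by bacterial flagellin and secretion-system proteins through the Naip receptors, was at 11.6, 10.3, 13.9 and 10.2 CPM in Ddx41+/+ and at 12.2, 11.7 and 13.3 CPM in Ddx41+/- samples. The Ddx41+/- values exceeded 3 of the 4 Ddx41+/+ samples and were below replicate 3. The log2 fold change was 0.11 (SE 0.14, edgeR adjusted p = 0.834). Replicate 3 alone made the genotypes overlap, so they did not overlap without it. The share of all genes without overlap in that smaller set is not given here. Without Ddx41+/+ replicate 3 the log2 fold change was 0.22 (edgeR adjusted p = 0.667, 0.615 to 0.961 over all alternatives).

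Pycard (chromosome 7, 127989708 to 127993867) encodes ASC, the adaptor that links Nlrp3 and Aim2 to caspase-1. It was detected at 62.9, 73.3, 67.8 and 63.7 CPM in Ddx41+/+ and 69.2, 61.4 and 60.9 CPM in Ddx41+/- samples. Replicates 7 and 8 were the lowest of the 7 samples, whereas replicate 6 was above 3 of the wild-type samples. The means of 66.9 ± 4.78 CPM (SD, n = 4) and 63.8 ± 4.64 CPM (SD, n = 3) differed by less than 1 SD, with a log2 fold change of -0.067 (SE 0.078, edgeR adjusted p = 0.813). Replicate 6 alone made the genotypes overlap, so they did not overlap without it. The share of all genes without overlap in that smaller set is not given here. Without Ddx41+/- replicate 6 the edgeR adjusted p was 0.545, the lowest of the alternatives for Pycard, which reached up to 0.978. Of the annotated Pycard exon bases, 12.8% are shared with Gm45205 on the opposite strand, whose reads could be separated only if strand was used in counting.

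The inflammatory caspases lie next to each other on chromosome 9, separated by 1562 bases. Casp1 (5298517 to 5307265) encodes caspase-1, the protease common to all canonical inflammasomes. Its coefficient of variation over all samples was 14.8%, compared with 2.75% to 7.03% for Aim2, Pycard and Gsdmd. It was at 47.3, 62.4, 74.3 and 56.2 CPM in Ddx41+/+ and 63.4, 60.3 and 51.8 CPM in Ddx41+/- samples. The spread was among wild-type mice, since replicates 1 and 3 were the lowest and the highest of all 7 samples. The log2 fold change was -0.038 (SE 0.13, edgeR adjusted p = 0.948) and the confidence interval covered 79.9% to 118.8% of the Ddx41+/+ level. Casp4 (5308828 to 5336783), the mouse caspase that binds cytosolic lipopolysaccharide and cleaves gasdermin D without a sensor complex, was at 18.9, 21.8, 20.7 and 20.2 CPM in Ddx41+/+ and at 21.1, 19.3 and 21.4 CPM in Ddx41+/- samples. Its genotypes overlapped completely, with a log2 fold change of 0.017 (SE 0.10, edgeR adjusted p = 0.974).

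Gsdmd (chromosome 15, 75862327 to 75867408), which encodes the pore-forming substrate of both caspases, had the steadiest level of the 9 genes. It was at 82.8, 82.0, 80.8 and 77.6 CPM in Ddx41+/+ and 83.2, 82.9 and 78.5 CPM in Ddx41+/- samples. The highest and the lowest of the 7 samples differed by 1.07-fold, and the coefficient of variation over all samples was 2.75%, compared with a counting error of 1.80% at 3074 counts on average. Whether read pairs or single reads were counted is not known, and if both reads of each pair were counted, that error would be 2.55%. The log2 fold change was 0.013 (SE 0.065, edgeR adjusted p = 0.966). The confidence interval, from 91.8% to 110.9% of the Ddx41+/+ level, was the narrowest of the 9, whereas that of Ddx41 itself extended from 61.9% to 76.4%.

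The cytokine genes had the fewest counts. Il1b (chromosome 2, 129364570 to 129371139), a priming target like Nlrp3, had 19, 2, 13 and 33 counts in Ddx41+/+ replicates 1 to 4 and 16, 21 and 15 counts in Ddx41+/- replicates 6 to 8. Both extremes were wild-type samples. The means were almost the same, at 0.458 ± 0.353 CPM (SD, n = 4) and 0.456 ± 0.149 CPM (SD, n = 3), but the log2 fold change of -0.014 had an SE of 0.73 (edgeR adjusted p = 0.995). Its confidence interval covered 33.9% to 289.4% of the Ddx41+/+ level. The coefficient of variation over all samples was 57.7%, compared with a counting error of 24.3% at 17 counts on average. Il1b also shares 25 exon bases with the antisense transcript Il1bos. Il18 (chromosome 9, 50554827 to 50581840), whose transcript is made constitutively in many cells, was at 2.18, 3.80, 2.05 and 3.65 CPM in Ddx41+/+ and 2.97, 2.88 and 2.80 CPM in Ddx41+/- samples. Wild-type samples fell into 2 high and 2 low values, with the 3 Ddx41+/- samples between them. The log2 fold change was -0.021 (SE 0.28, edgeR adjusted p = 0.987), with an interval from 65.4% to 148.5% of the Ddx41+/+ level.

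**Figure D2:**
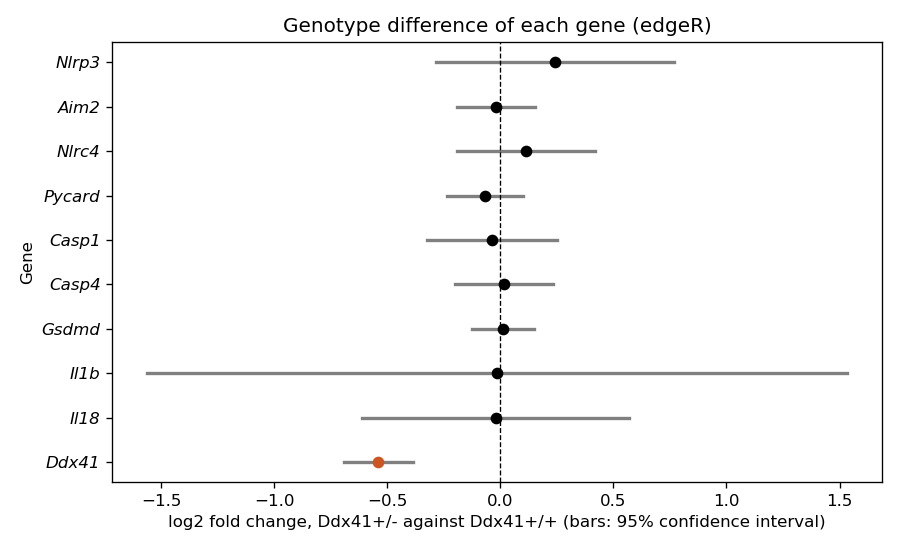
Log2 fold change of each inflammasome gene and of Ddx41 in Ddx41+/- against Ddx41+/+ samples from edgeR, with bars for the 95% confidence interval. All 9 intervals include 0, from -0.12 to 0.15 for Gsdmd up to -1.56 to 1.53 for Il1b, while that of Ddx41 runs from -0.69 to -0.39.

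Single values compared by an exact permutation test over the samples (two-sided) gave p from 0.4 for Nlrp3 and Pycard to 0.914 for Il1b, where the smallest p that 4 against 3 samples allow is 0.0286. The highest value was in a Ddx41+/+ sample for 8 of the 9 genes, compared with 56.4% of all genes tested, and the lowest for 8 of the 9, compared with 55.1%. The exceptions were Gsdmd, which was highest in Ddx41+/- replicate 6, and Pycard, which was lowest in replicate 8. In 7 of the 9 genes, all except Pycard and Gsdmd, the Ddx41+/- values lay entirely within the Ddx41+/+ range, as they did in 23.8% of all genes. No test was applied to these counts. Ddx41+/- replicate 6 was above the mean of all samples in log2 CPM for all 9 genes. Ddx41+/+ replicate 1 and Ddx41+/- replicate 8 were above that mean for 2 genes each. Replicate 6 also had the highest neutrophil, B cell and erythroid marker sums, at 2283, 78.8 and 74.9 CPM. The other marker sums were highest in other samples, that of monocytes and macrophages in Ddx41+/- replicate 7, at 2758 CPM. The summed level of the 9 genes was between 270.6 and 311.6 CPM in Ddx41+/+ and between 276.6 and 305.1 CPM in Ddx41+/- samples.

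Levels between genes were compared per kilobase of annotated exon. In descending order of the mean over all samples, CPM per kilobase was 39.7 for Casp1, 34.1 for Gsdmd, 17.3 for Pycard, 12.99 for Aim2, 5.52 for Casp4, 2.82 for Il18, 2.47 for Nlrc4, 1.00 for Nlrp3 and 0.240 for Il1b. The caspase, the pore-former, the adaptor and the DNA sensor thus headed the order, and the priming-regulated pair Nlrp3 and Il1b closed it. Neighbours in this order were separated in all 7 samples, with the exception of Casp1 and Gsdmd (Casp1 higher in 6 of 7) and of Il18 and Nlrc4 (Il18 higher in 4 of 7). The order rests on the length used. With the mean length of the coding transcripts in place of the union of exons, chosen after the values were seen, Gsdmd at 78.4 moved above Casp1 at 39.7, Pycard and Aim2 came to 30.6 and 30.4 CPM per kilobase, and Casp4 went from 5.52 to 22.8 CPM per kilobase, the largest shift in proportion among the 9 genes. The positions of the other 7 genes were the same.

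**Figure D3:**
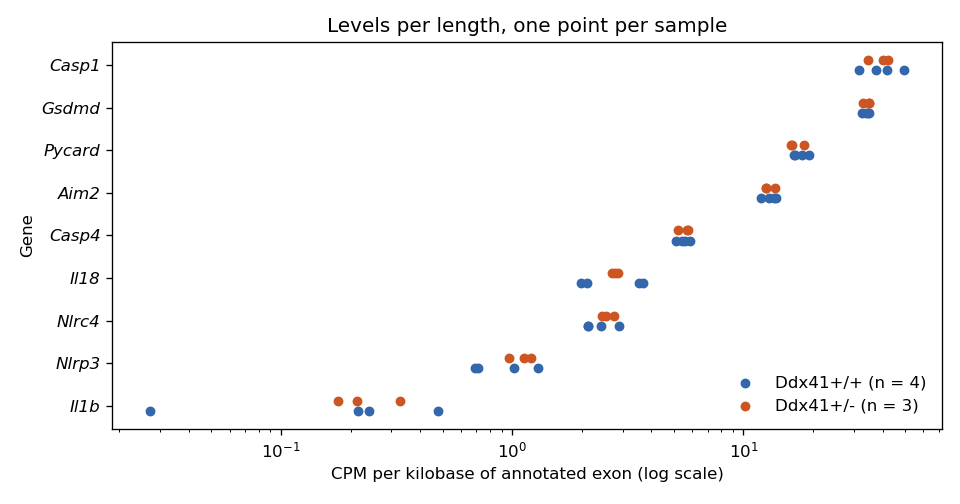
CPM per kilobase of annotated exon (log scale) for each inflammasome gene, with 1 point per sample, Ddx41+/+ in blue (n = 4) and Ddx41+/- in orange (n = 3). Means run from 39.7 for Casp1 to 0.240 for Il1b, and the genotypes overlap at every gene.

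Covariation among the genes was described over the 7 samples, which share depth and scaling, and no test was applied. Of 36 gene pairs, 22 had a positive Pearson's r in log2 CPM, with a median of 0.10. The highest values were 0.86 for Aim2 and Pycard and 0.85 for Aim2 and Casp1, and the lowest was -0.77 for Nlrc4 and Il18. The member closest to Nlrp3 was Il1b, with an r of 0.68 that rests on few counts. Il1b had 2 counts in Ddx41+/+ replicate 2 and 33 in replicate 4, its extremes, where Nlrp3 was at 2.90 and 5.25 CPM. Among 10117 genes with a mean of at least 5 CPM, those with the highest r to Nlrp3 were Snrnp48 (0.97), Rbbp5 (0.95), Hebp1 (0.95), Snhg1 (0.94) and Fam206a (0.93). These 5 were picked as the highest of the 10117, of which 11 had an r of at least 0.9.

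The wider pathway was examined with a list of 93 entries for other sensors, activators, inhibitors, death effectors, and cytokines with their receptors. Of these, 91 symbols were in the counts and 84 passed the filter. By edgeR, 1 of the 84 had an adjusted p under 0.05, compared with 0.217% of all genes. This was Txnip, which was lower in Ddx41+/- cells. At an unadjusted p under 0.05 there were 8 higher and 6 lower genes, together 16.7% of the list compared with 10.6% of all genes, and 20 of the 84 did not overlap between the genotypes, where 10.1% of all genes did not. The median log2 fold change of the list was -0.0031, with 41 genes above 0 and 43 below. At that unadjusted p, 3 of 19 other sensors were higher and 0 lower, 2 of 28 activators and partners were higher and 3 lower, and 1 of 13 inhibitors was lower. Of 13 other caspases and death effectors, 3 were higher, and of 11 cytokines and receptors, 2 were lower. Genes left out by the filter included Il1a, the sister cytokine of Il1b, with 18 counts in Ddx41+/+ replicate 1 and 0 to 5 in the other samples, and the alarmin Il33, with 0 to 8 counts.

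Txnip, a glucose-responsive inhibitor of thioredoxin that has been described as a partner of Nlrp3 under oxidative stress, was at 231.4, 229.7, 244.3 and 224.0 CPM in Ddx41+/+ and 186.3, 194.2 and 156.6 CPM in Ddx41+/- samples. All Ddx41+/- values were below the wild-type range. The level was 77.1% of that in Ddx41+/+ (log2 fold change -0.38, SE 0.073, edgeR adjusted p = 0.0479). Its adjusted p was between 0.00114, under DESeq2, and 0.152, without Ddx41+/- replicate 8, and it was under 0.05 in 6 of 14 alternatives. Of the 7 fits without 1 sample, it passed in the fit without Ddx41+/- replicate 7 (0.0451) and in none of the others. It also missed the threshold with median-of-ratios scaling (0.0502) and with a non-robust fit (0.0757). The summed LSK markers were also lower in Ddx41+/- samples, although Kit and Ly6a overlapped between the genotypes. The part of the LSK markers in the Txnip difference was not tested.

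By edgeR, none of the other genes of the list passed. Among sensors with the smallest p, Mefv, which encodes pyrin, was at 37.4 ± 1.22 CPM (SD, n = 4) and 45.99 ± 2.57 CPM (SD, n = 3), without overlap (log2 fold change 0.30, edgeR adjusted p = 0.168). Naip2, a receptor that feeds bacterial secretion-system proteins to Nlrc4, was at 50.0 ± 2.52 CPM and 60.8 ± 4.86 CPM (0.28, adjusted p = 0.192). The related Naip5 and Naip6 had log2 fold changes of -0.050 and 0.21, with adjusted p-values of 0.893 and 0.786. Cd14, a lipopolysaccharide co-receptor that also belongs to the monocyte and macrophage markers, was at 15.3 ± 2.46 CPM and 21.3 ± 3.60 CPM (log2 fold change 0.47, edgeR adjusted p = 0.249). Nek7, the kinase that bridges Nlrp3 subunits, had a log2 fold change of 0.082 (edgeR adjusted p = 0.769), and Ninj1, which ruptures the membrane after gasdermin pores form, one of 0.058 (0.854).

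Differences at the receiving end of the pathway did not pass either. Il18r1, the ligand-binding chain of the Il18 receptor, was at 6.96, 3.60, 6.38 and 5.28 CPM in Ddx41+/+ and 3.40, 1.39 and 2.89 CPM in Ddx41+/- samples. The values did not overlap, but Ddx41+/+ replicate 2 and Ddx41+/- replicate 6 nearly met. This was the largest fold change of the list, -1.11 on the log2 scale (SE 0.30), with an edgeR adjusted p of 0.187, and it passed under DESeq2 (0.0291), as did Mefv (0.0408). In the other alternatives neither passed, and adjusted p reached up to 0.459 and 0.461. Il1r1, which encodes the signaling receptor for Il1b, was at 38.4 ± 2.58 CPM (SD, n = 4) and 32.3 ± 0.640 CPM (SD, n = 3), again without overlap (log2 fold change -0.25, edgeR adjusted p = 0.313). The antagonists Il1rn and Il18bp had log2 fold changes of 0.069 and -0.070 (edgeR adjusted p = 0.9749 and 0.947).

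Among the genes listed as inhibitors, Casp12 had the smallest p. This caspase gene, which follows Casp4 on chromosome 9 after 8646 bases, was at 14.0, 13.2, 15.5 and 12.9 CPM in Ddx41+/+ and 11.2, 7.56 and 9.81 CPM in Ddx41+/- samples (log2 fold change -0.54, SE 0.15, edgeR adjusted p = 0.195). Its neighbours Casp1 and Casp4 had log2 fold changes of -0.038 and 0.017.

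**Figure D4:**
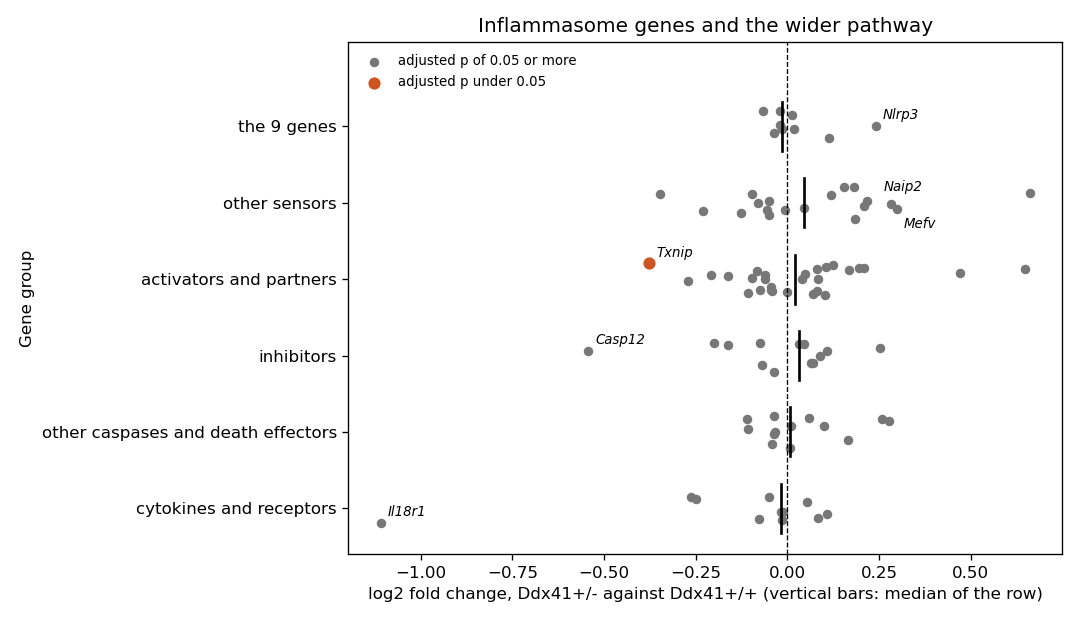
Log2 fold change in Ddx41+/- against Ddx41+/+ samples (edgeR) for the 9 inflammasome genes and the 84 tested genes of the wider pathway by group, with 1 point per gene and a vertical bar at the median of each row. Txnip, in orange, is the single gene with an adjusted p under 0.05, and Il18r1 lies farthest from 0 at -1.11.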

How the data were processed

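RNA-seq was performed on sorted LSK cells of 4 Ddx41+/+ and 3 Ddx41+/- samples, grouped by the genotype in the labels. The values the authors deposited are unnormalized counts, 1 row for each gene symbol. The submitters' processing notes name FastQC 0.11.7, HISAT2 2.0.5, featureCounts 1.5.2 and the mm10 genome, with no options. The labels name a stranded library kit and the study's methods an unstranded version, so whether strand was used in counting is not known, nor whether read pairs or single reads were counted. All 7 sample columns were used (0 columns of other samples). Every one of the 21 sample pairs differed beyond sampling noise (lowest chi-square per gene 13.7).

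Counts were tested with edgeR 4.0.16 in R 4.3.3 (TMM scaling, filterByExpr, robust quasi-likelihood fit, genotype as the only term), with BH adjustment over 13340 genes and a threshold of 0.05, after tests on simulated data. The biological coefficient of variation was 12.9%. CPM used TMM-scaled library sizes, and log2 CPM a prior count of 2. Positions and exon lengths came from GENCODE M21 (GRCm38), and promoters from RefSeq. Alternatives were other scalings, no filter, a non-robust fit, DESeq2 1.42.0, limma-voom (limma 3.58.1) and leaving out each sample.

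All 9 genes were named, together with the wider pathway genes that passed the threshold, filled up to 6 by the smallest p, 9 chosen by role, and the 5 genes most correlated with Nlrp3. The genes and lists were chosen with earlier results of these data known. Standard errors were derived from the log2 fold change and its quasi-likelihood F. The edgeR p-values test the genotype difference against the spread between these samples, which the fit moderates across genes.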

Additional observations from a re-analysis of the deposited data

How the results depend on the processing

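The number of inflammasome genes with an adjusted p under 0.05 was 0 in the fit reported and in all 14 alternatives. The smallest adjusted p of any of the 9 in an alternative was 0.545, for Pycard without Ddx41+/- replicate 6. Signs of differences near 0 were not stable. The log2 fold change of Gsdmd was -0.0023 with library totals only, and under limma-voom that of Il1b was 0.93 and that of Il18bp 0.0016. In the 7 fits that each left out a sample, the log2 fold change went from -0.063 to 0.011 for Aim2, -0.14 to 0.080 for Casp1, -0.019 to 0.059 for Casp4, -0.0059 to 0.039 for Gsdmd, -0.39 to 0.56 for Il1b, -0.15 to 0.14 for Il18, -0.18 to 0.23 for Il1rn and -0.18 to 0.0023 for Il18bp. Nlrp3, Nlrc4 and Pycard kept their sign throughout. The number of the 9 genes without overlap between genotypes was 0 under each scaling. It was 0 to 1 without a sample, with Gsdmd as the gene without Ddx41+/- replicate 8. The share of all genes without overlap in these smaller sets is not given here, so these counts have no background. The number of wider pathway genes called (1) was 0 with median-of-ratios scaling and with a non-robust fit, 3 with DESeq2, and 0 to 1 without a sample. Over all genes, 29 were called, 15 with library totals only, 91 without a filter, 156 with DESeq2, 14 with a non-robust fit and 7 to 41 without a sample. The causes of these changes were not tested. The coefficient of variation over all samples exceeded the counting error, at 57.7% against 24.3% for Il1b, 23.1% against 8.09% for Nlrp3 and 22.8% against 9.52% for Il18. No paired analysis was possible because the genotypes share no replicate number.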
